A study of Mus musculus with 6 samples.

Results

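Clec2d, Cd69 and Clec12a are neighbouring genes of mouse chromosome 6 that encode C-type lectin-like receptors and ligands of blood cells. They were chosen by gene symbol, with their values in this comparison known, and each had 1 row, so that 3 of the 12615 rows of the deposited table are described. The series compared Ba/F3 cells, an interleukin-3 (IL-3) dependent mouse pro-B cell line, that constitutively expressed human calreticulin with the type 1 mutation (hCALR-del52) with Ba/F3 cells that expressed unmutated human calreticulin (hCALR). Both groups carried the vector pMSCV-IRES-GFP and grew in RPMI with serum and IL-3 at 1 ng/ml, and total RNA of 3 replicates per group was sequenced, 6 samples in all. The labels do not tell whether replicates are separate cultures or transductions, and construct and transduced line cannot be told apart. Cells without a calreticulin construct were not analysed here. The table gave 1 FPKM per group (fragments per kilobase, normalised to the library), so no value below has an SD, and sequencing depth is unknown.

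C-type lectin-like proteins share a fold first known from sugar-binding receptors, and many of those in the natural killer (NK) gene complex of chromosome 6 bind proteins instead. In this complex, genes of receptors and genes of their ligands lie side by side. Clec2d encodes Clr-b, a broadly expressed ligand that inhibits mouse NK cells through the receptor NKR-P1B. Cd69 encodes a receptor that appears early after lymphocyte activation and binds the sphingosine-1-phosphate (S1P) receptor S1PR1, which keeps lymphocytes in the tissue. Clec12a encodes an inhibitory receptor of granulocytes, monocytes and dendritic cells that signals through a tyrosine-based inhibitory motif (ITIM).

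The RefSeq promoter table (GRCm38.p6, the assembly of mm10) held 2 of the 3 members, from 250 bases before to 50 bases after a gene start, on the plus strand. They are shown because the members were lower together, and matches to motifs of blood cell transcription factors are in capitals. The Clec2d window is chr6:129180365-129180664 and the Clec12a window is chr6:129349994-129350293. The start used for Clec12a lies 7.55 kb inside the locus that the deposited table gives.
Clec2d: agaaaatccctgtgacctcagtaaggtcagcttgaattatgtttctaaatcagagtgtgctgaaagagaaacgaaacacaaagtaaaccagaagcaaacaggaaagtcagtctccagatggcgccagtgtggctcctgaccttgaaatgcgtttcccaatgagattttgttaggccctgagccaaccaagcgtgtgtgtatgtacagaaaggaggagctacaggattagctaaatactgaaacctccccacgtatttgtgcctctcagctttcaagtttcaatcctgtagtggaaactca
Clec12a: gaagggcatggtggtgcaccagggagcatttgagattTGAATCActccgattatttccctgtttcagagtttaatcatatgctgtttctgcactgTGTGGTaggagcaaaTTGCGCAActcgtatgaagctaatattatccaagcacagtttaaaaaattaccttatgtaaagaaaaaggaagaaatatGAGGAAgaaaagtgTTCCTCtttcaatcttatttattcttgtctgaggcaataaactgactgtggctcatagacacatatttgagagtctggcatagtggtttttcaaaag

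Matches were sought on both strands for 6 motifs, which were chosen after these sequences had been seen. None of the 6 was found in the Clec2d window. The Clec12a window held the AP-1 motif TGANTCA, found in 7.81% of 32851 promoters in the table, the RUNX motif TGTGGT, found in 16.8%, and the PU.1 motif GAGGAA at 2 places, found in 28.3%. It also held TTGCGCAA, a palindrome bound by C/EBP factors, at position -140 from the gene start, which 60 of the 32851 promoters held (0.183%). Neither window held AGATAA, the GATA motif, or TTCNNNGAA, the STAT motif, found in 11.2% and 8.30% of promoters. Because the motifs were chosen with the sequences known, these shares do not measure how unusual a match is. A match is only a match of letters, and binding was not measured.

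The messages of all 3 members were lower in hCALR-del52 cells. Clec2d (ENSMUSG00000030157, plus strand, chr6:129180615-129186534, mm10) is protein coding and was at 27.9 FPKM in hCALR-del52 cells and 49.2 FPKM in hCALR cells. This is a 1.77-fold lower level, and the authors' deposited table gives a log2 fold change of -0.82 with p = 0.00255 and q = 0.0467. Clec2d was the most abundant member in each group: 31.6% of all rows had a higher FPKM in hCALR-del52 cells and 18.7% in hCALR cells.

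Cd69 (ENSMUSG00000030156, minus strand, chr6:129267324-129275369) is protein coding and was at 2.99 FPKM in hCALR-del52 cells and 8.02 FPKM in hCALR cells, a 2.69-fold lower level. The authors' deposited table gives Cd69 a log2 fold change of -1.43 with p = 5e-05 and q = 0.00161. Its level lay below the median of all rows in each group, which was 14.5 FPKM in hCALR-del52 cells and 14.9 FPKM in hCALR cells.

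Clec12a (ENSMUSG00000053063, plus strand, chr6:129342691-129365303) is protein coding and was at 0.491 FPKM in hCALR-del52 cells and 2.37 FPKM in hCALR cells, a 4.83-fold lower level. The authors' deposited table gives a log2 fold change of -2.27 with p = 1e-04 and q = 0.00296. Of all rows, 99.6% had a higher FPKM than Clec12a in hCALR-del52 cells. Genes of low expression had been removed, so this is a share of the kept rows. Whether Clec12a stayed in only through its hCALR value cannot be told. On the log2(FPKM + 1) scale, which understates the change of low genes, its ratio was -1.18, the same as the -1.18 of Cd69, while that of Clec2d was -0.80.

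The order of the levels was thus Clec2d, Cd69, Clec12a in each group, and the order of the folds was the reverse. Without a value per replicate, neither the spread around these levels nor a test between neighbours in the order can be given. These values chose the members, so they are a description and no support for a shared change. All 3 members passed the authors' q under 0.05 in the lower direction, as did 0.967% of all rows (122 of 12615). Clec2d stood near the threshold: only 4 of the 232 called rows had a larger q, and its adjusted p was 0.141 when the adjustment covered all rows of the table. Under that adjustment Cd69 had 0.00548 and Clec12a 0.0097, and 0.729% of all rows were called lower. The deposited q of each member was smaller, and the sources used here do not state which tests it covers. Genes removed before deposit are outside the adjustment made here. A lower FPKM in a bulk sample can mean fewer cells with the message or less of it per cell, and these cannot be told apart.

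**Figure D1:**
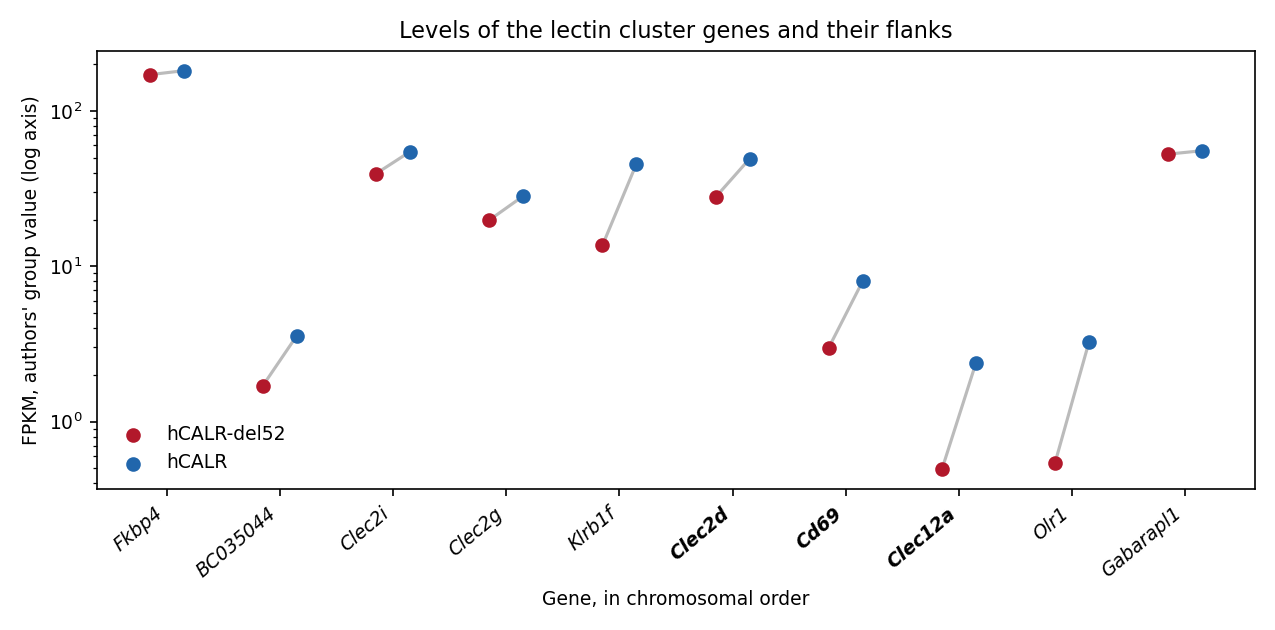
FPKM (authors' group value, log axis) of the 3 members (bold) and of measured genes around them in chromosomal order, with hCALR-del52 in red on the left and hCALR in blue on the right of each pair and no error bars because 1 value per group was given. The genes from BC035044 to Olr1 are lower in hCALR-del52 cells, while Fkbp4 and Gabarapl1, at the flanks, lie nearly level. Fkbp4 was picked after its values were seen, and the rows without a symbol between it and BC035044 are not drawn. For a gene with 2 rows the row with the higher mean is drawn.

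The members span 185 kb, with 80.8 kb between Clec2d and Cd69 and 67.3 kb between Cd69 and Clec12a. Their neighbours were not used to choose them. Within 1 Mb on each side the table held 25 other rows in 11 loci, of which 21 had a ratio below 0 and 4 above. None of the 25 passed the authors' Cuffdiff test at q under 0.05, against 1.84% of all rows. At an unadjusted p under 0.05 there were 3, all lower in hCALR-del52 cells, against 4.9% of all rows in either direction. The median log2 ratio of the 25 rows was -0.48, beside -0.01 over all 12615 rows and -0.01 over the 591 rows of chromosome 6. It was -0.25 over the 17 of these rows with an identifier, and -0.26 over the 35 rows within 2 Mb.

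The low values were not spread evenly over this window. Between the loci of Clec2i and Olr1, bounds chosen after the values were seen, all 15 rows other than the members were below 0. Their log2 ratios ran from -1.67 to -0.26 with a median of -0.55, and 9 of the 15 were at or below -0.5, as were 5.31% of all rows. The 10 other rows of the window had a median of -0.03. The lowest of these 10, a row without an identifier just before Clec2i, was at 1.39 FPKM in hCALR-del52 cells and 2.50 FPKM in hCALR cells (unadjusted p = 0.035 in the authors' deposited table). These 15 rows lie in only 4 loci, and rows of a locus share reads and position, so they are not 15 independent observations.

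On the side of Clec2d, Klrb1f, which encodes the activating NK receptor NKR-P1F, was at 13.6 FPKM in hCALR-del52 cells and 45.6 FPKM in hCALR cells. The authors' deposited table gives this row p = 0.0046 and q = 0.0735, so it was not called. A second row of Klrb1f, which carries the identifiers of 2 more genes of that locus, was at 3.75 FPKM in hCALR-del52 cells and 9.71 FPKM in hCALR cells. The sources used here do not say how reads were divided between the overlapping rows.

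Other genes of the Clr family lie in the same stretch. Clec2g was at 19.8 FPKM in hCALR-del52 cells and 28.3 FPKM in hCALR cells in a row shared with an antisense gene and a pseudogene, so reads from Clec2g and its antisense partner cannot be told apart. In its second row it was at 2.67 and 3.41 FPKM in hCALR-del52 and hCALR cells. Clec2i was at 39.5 FPKM in hCALR-del52 cells and 54.7 FPKM in hCALR cells, and BC035044, in the same locus, at 1.71 and 3.58 FPKM. None of these rows was called.

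On the side of Clec12a, the next measured gene was Olr1, which encodes LOX-1, a scavenger receptor for oxidised low-density lipoprotein. It was at 0.542 FPKM in hCALR-del52 cells and 3.25 FPKM in hCALR cells. The authors' deposited table gives Olr1 p = 0.00935 and q = 0.127, so it was not called although its fold exceeded that of Clec12a. Of 14 protein-coding genes that GENCODE M21 places between Clec2i and Olr1, 8 had a row. Clec12b, Clec1a, Clec1b, Clec2e, Clec9a and 4922502D21Rik were not analysed here, and genes with low expression had been removed from the table.

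Beyond Olr1, Gabarapl1, an autophagy gene of the ATG8 family, was at 52.7 FPKM in hCALR-del52 cells and 55.5 FPKM in hCALR cells. The next genes, Magohb and Styk1, lie outside the window. Magohb, a component of the exon junction complex, was at 14.98 FPKM in hCALR-del52 cells and 16.4 FPKM in hCALR cells, and Styk1, a kinase-like gene, at 3.63 and 3.90 FPKM. On the other flank Fkbp4, which encodes a co-chaperone of HSP90, was at 171 FPKM in hCALR-del52 cells and 182 FPKM in hCALR cells. The log2 ratios of these 4 flanking genes lay between -0.12 and -0.07, closer to the median of all rows than any row between Clec2i and Olr1. Fkbp4 was picked, and those bounds set, after the values were seen, so this contrast is partly built in. Between Fkbp4 and Clec2i lie rows without a symbol, with log2 ratios of 0.09, -0.25 and -0.55.

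**Figure D2:**
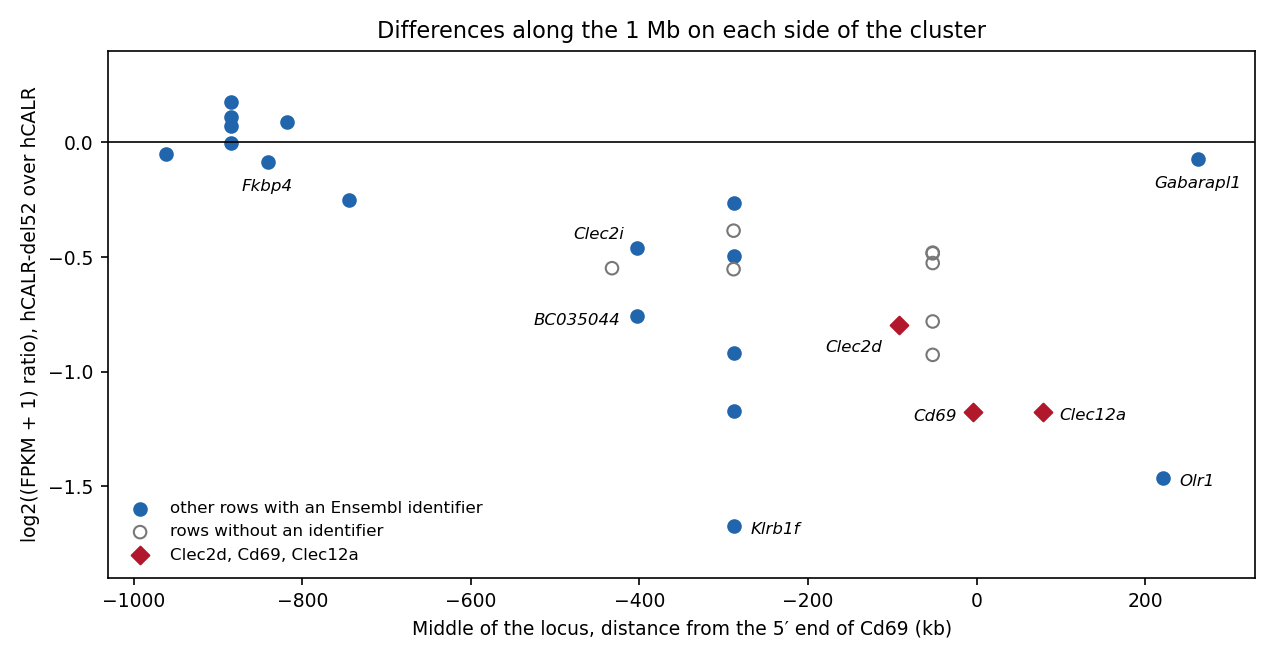
Log2((FPKM + 1) ratio) of hCALR-del52 over hCALR for each row within 1 Mb of the members, by the distance of the middle of its locus from the 5′ end of Cd69 in kb. Red diamonds are the 3 members, blue points other rows with an Ensembl identifier and open circles rows without one, and points above each other share a locus. All rows from Clec2i to Olr1 lie below 0, between -1.67 and -0.26.

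Values between Clec2d and Cd69 lay in the same direction. In the 30.6 kb locus chr6:129207976-129238599 the table held 5 rows without an identifier, where GENCODE M21 places the long noncoding RNA gene 2310001H17Rik. The most abundant of these rows was at 24.2 FPKM in hCALR-del52 cells and 42.3 FPKM in hCALR cells, with p = 0.0745 in the authors' deposited table. All 5 log2 ratios were below 0, with a median of -0.53, and none was called.

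C-type lectin-like genes elsewhere in the genome lay on either side of equality. Of 114 listed genes of this fold, 21 had a row, the 3 members among them. The 4 others within 1 Mb (Clec2i, Clec2g, Klrb1f and Olr1) had a median log2 ratio of -0.98, and the 14 elsewhere had a median of 0.02, with 6 below 0 and 8 above. The 4 near genes lie in only 3 loci, and their ratios ran from -1.67 to -0.46. Olr1, one of them, was at only 0.542 FPKM in hCALR-del52 cells. None of the 18 was called by the authors' Cuffdiff test, against 1.84% of all rows, and 4 had an unadjusted p under 0.05, against 4.9%. Whether the 4 near genes and the 14 others differ was not tested.

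Among the genes elsewhere, Clec4e, which encodes Mincle, a receptor for mycobacterial glycolipids, was at 38.8 FPKM in hCALR-del52 cells and 59.0 FPKM in hCALR cells (q = 0.806). Clec4d, its neighbour in another lectin cluster of chromosome 6, was at 54.2 FPKM in hCALR-del52 cells and 47.6 FPKM in hCALR cells. Selp, which encodes P-selectin, was at 3.15 FPKM in hCALR-del52 cells and 0.871 FPKM in hCALR cells (q = 0.339). None of these 3 genes was called.

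**Figure D3:**
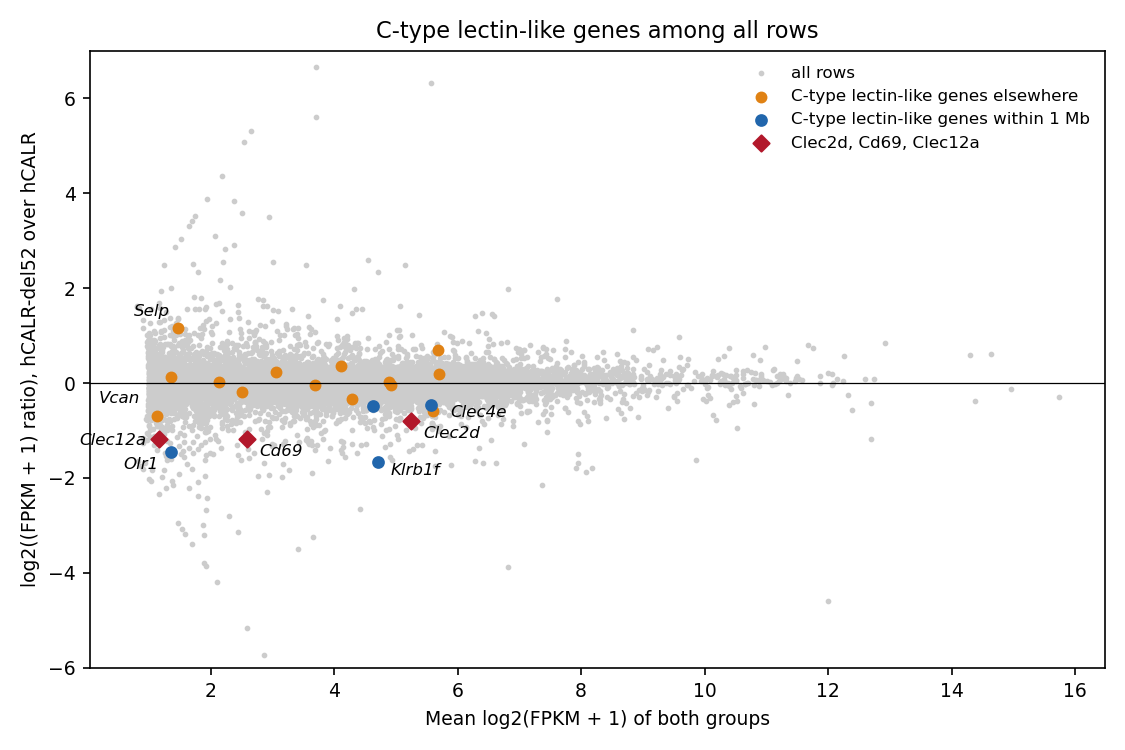
Log2((FPKM + 1) ratio) of hCALR-del52 over hCALR against the mean log2(FPKM + 1) of both groups for all 12615 rows (grey). The 3 members (red diamonds) and the 4 C-type lectin-like genes within 1 Mb of them (blue) lie below 0, while the 14 elsewhere (orange) lie on both sides.

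Genes that work with the members were counted in lists chosen with earlier results of these data known. S1P acts through G protein-coupled receptors, to one of which CD69 binds. Of 18 genes of S1P transport, receptors and signalling, 10 had a row, 1 rose and none fell, against 0.872% of all rows that were called higher, with a median log2 ratio of -0.05. The gene that rose was Mfsd2b, which encodes an S1P exporter of red cells and platelets. It was at 58.1 FPKM in hCALR-del52 cells and 10.6 FPKM in hCALR cells (q = 0.00161). Spns2, another S1P exporter, was at 387 FPKM in hCALR-del52 cells and 304 FPKM in hCALR cells and was not called. S1pr1 itself was not analysed here, while S1pr2 was at 4.72 FPKM in hCALR-del52 cells and 4.62 FPKM in hCALR cells.

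Cd69 is itself an early activation gene. Of 35 other such genes, 26 had a row, 3 rose and none fell, against 0.872% of all rows called higher, with a median log2 ratio of 0.03. Fos, a subunit of AP-1, was at 4.99 FPKM in hCALR-del52 cells and 1.41 FPKM in hCALR cells (q = 0.0078). Ier5 was at 9.58 FPKM in hCALR-del52 cells and 4.81 FPKM in hCALR cells (q = 0.0121), and Ier2 at 84.9 and 46.6 FPKM (q = 0.0215). The adjusted p of Ier2 over all rows was 0.0664. Cd69 thus went the other way from the 3 called genes of this list. Of the 26 genes, 11 lay below 0, as Cd69 did, and 15 lay above. Cd44, an adhesion receptor of activated lymphocytes, was at 64.7 FPKM in hCALR-del52 cells and 72.2 FPKM in hCALR cells and was not called.

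Interferon raises Cd69 in lymphocytes. Of 31 interferon-inducible genes, 20 had a row, 4 rose and 1 fell, against 0.872% and 0.967% of all rows, with a median log2 ratio of 0.19. Those that rose were Oas2, Oasl1, Oasl2 and Ifit1, and the call of Oasl1 ended over all rows, with an adjusted p of 0.0624. Oas2, a sensor of double-stranded RNA, was at 11.6 FPKM in hCALR-del52 cells and 2.67 FPKM in hCALR cells (q = 0.00161). Ifi27l2a, the gene that fell, was at 1.84 FPKM in hCALR-del52 cells and 5.62 FPKM in hCALR cells (q = 0.0206), a call that also ended over all rows, with an adjusted p of 0.0641.

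Clec12a signals through phosphatases that bind its ITIM. Of 29 genes of ITAM and ITIM signalling, 23 had a row. None was called by the authors' Cuffdiff test, against 1.84% of all rows, and 2 had an unadjusted p under 0.05, against 4.9%. The median log2 ratio of the 23 was -0.12, with 18 below 0, as were 52.3% of all rows. Ptpn6, which encodes the phosphatase SHP-1, was at 322 FPKM in hCALR-del52 cells and 500.1 FPKM in hCALR cells (q = 0.822). Tyrobp, the adaptor DAP12, was at 68.7 FPKM in hCALR-del52 cells and 116 FPKM in hCALR cells (q = 0.229). Both were among the lowest ratios of the list. Inpp5d was nearly level, at 82.5 FPKM in hCALR-del52 cells and 87.1 FPKM in hCALR cells. The 5 genes above 0 included Fyn, at 30.7 FPKM in hCALR-del52 cells and 24.8 FPKM in hCALR cells.

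Other inhibitory receptors were also listed. Of 28, 11 had a row, 2 fell and none rose, against 0.967% of all rows called lower, with a median log2 ratio of -0.25. Lilrb4 was at 0.292 FPKM in hCALR-del52 cells and 1.97 FPKM in hCALR cells (q = 0.00161), and Lilrb3 at 1.30 and 3.30 FPKM (q = 0.00296). Both encode receptors of leukocytes with ITIMs, and both lie outside chromosome 6. The Lilrb4 row also carries the identifier of another gene, so reads of these genes cannot be told apart. Of the 11 receptors, 4 lay above 0, among them Siglec5, at 6.82 FPKM in hCALR-del52 cells and 3.04 FPKM in hCALR cells and not called. Like Clec12a, Lilrb4 was under 1 FPKM in hCALR-del52 cells, so that its fold rests on a value close to 0.

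Markers of cells that carry these lectins were set beside them. Of 28 granulocyte and monocyte markers, 8 had a row, 5 fell and 1 rose, against 0.967% and 0.872% of all rows. Their summed level was 116 FPKM in hCALR-del52 cells and 185 FPKM in hCALR cells. Cebpe, a C/EBP factor of granulocyte maturation, was at 24.7 FPKM in hCALR-del52 cells and 62.9 FPKM in hCALR cells (q = 0.00161). Emr1, which encodes the macrophage marker F4/80, was at 2.20 FPKM in hCALR-del52 cells and 34.9 FPKM in hCALR cells (q = 0.00161). S100a8, S100a9 and Ngp also fell, while Lyz2, the lysozyme gene, was called higher with q = 0.0389, a call that ended over all rows, with an adjusted p of 0.118. The other 2 were higher in hCALR-del52 cells and not called, so that 3 of the 8 lay above 0. Prtn3 was at 65.1 FPKM in hCALR-del52 cells and 48.9 FPKM in hCALR cells, and Mpo at 6.93 and 3.60 FPKM. The part of these marker differences in the values of Clec12a was not tested.

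Of 17 NK cell markers 4 had a row, of which the chemokine gene Ccl5 rose, against 0.872% of all rows called higher, and of 21 T cell markers 3 had a row, of which Cd3g and Grap2 rose. The summed level of the NK markers was 916 FPKM in hCALR-del52 cells and 1432 FPKM in hCALR cells, nearly all of it the granzyme gene Gzmb. Gzmb was not called (q = 0.552), and 2 of the 4 NK markers lay above 0. The summed level of the T cell markers was 41.9 FPKM in hCALR-del52 cells and 7.23 FPKM in hCALR cells. Lat, the third of them, was nearly level at 5.33 FPKM in hCALR-del52 cells and 5.16 FPKM in hCALR cells. T cell receptor segments were not in this list and went both ways. Trbv13-2 was called lower with a log2 ratio of -3.88, and Trav18 was called higher with 1.27. Of 21 pro-B cell markers 3 had a row (Ptprc, Tcf3 and Cd79b), with summed levels of 126 FPKM in hCALR-del52 cells and 144 FPKM in hCALR cells. None of the 3 was called, against 1.84% of all rows, and 1 had an unadjusted p under 0.05, against 4.9%. None of 12 defining markers of these cell types had a row, among them Ncr1, Cd3e, Itgam and, for pro-B cells, Pax5. The labelled pro-B identity therefore could not be checked by its defining markers. The part of these markers in the values of Clec2d and Cd69 was not tested.

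**Figure D4:**
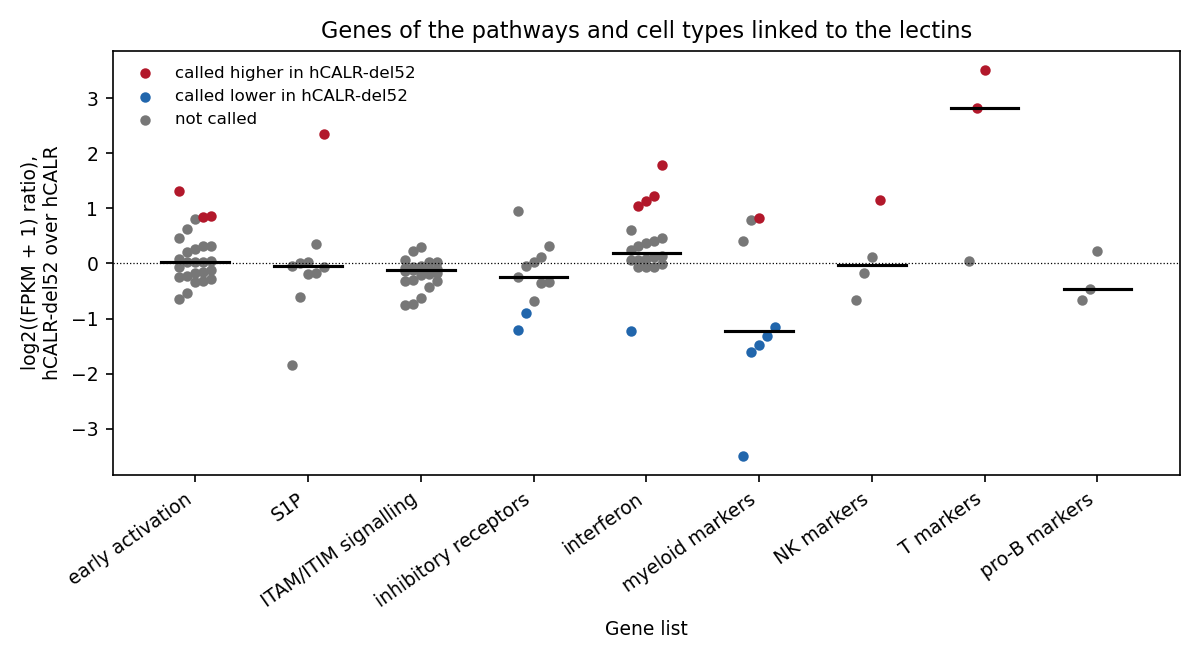
Log2((FPKM + 1) ratio) of hCALR-del52 over hCALR for each measured gene of the lists, with called genes in red (higher in hCALR-del52) or blue (lower), others in grey and the list median as a black line. The called myeloid markers lie mostly below 0, the called genes of the early activation and T cell lists above 0, and no ITAM and ITIM signalling gene is called. T cell receptor segments are not in these lists.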

How the data were processed

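Groups were taken from the sample titles. Reads were aligned with TopHat2 2.0.9 and Bowtie2 2.1.0 and compared with Cuffdiff 2.1.1, per the submitters' processing notes. The build was mm10 with Ensembl genes, and genes of low expression or high variability were removed, per the file headers. The deposited FPKM combine the replicates into 1 value per group. The deposited log2 fold change (hCALR-del52 over hCALR), p-value and q-value come from the authors, as does the deposited rank, a score used here only to order rows. Starts in the table count from 0, and 1 was added.

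Called means the authors' q under 0.05. Computed here were folds, log2((FPKM hCALR-del52 + 1)/(FPKM hCALR + 1)), counts, medians and a Benjamini-Hochberg adjustment over all 12615 rows, tested on simulated p-values. For a symbol on several rows, lists use the row with the highest mean FPKM. Members and lists were chosen with earlier results of these data known. Names follow a rule: the members, the 4 rows with a symbol nearest on each side, called list genes, the most abundant genes of each list and the 3 rows closest to each member in level. BC035044, Fkbp4, Selp, S1pr2, Gpr183, Tec, Trbv13-2, Trav18 and rows without a symbol were named after their values were seen. Some items that the rule names are left out here. Gene types come from GENCODE M21 and promoters from RefSeq. Python 3.11.15, numpy 2.4.6 and pandas 2.3.3 were used.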

Additional observations from a re-analysis of the deposited data

How the results depend on the processing

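Clec2d kept its log2 ratio of -0.80 but lost its call at q under 0.01, with a minimum absolute log2 ratio of 1, and when the adjustment covered all rows (adjusted p of 0.141). Cd69 kept its direction and call under every alternative run, and so did Clec12a, which the minimum of 1 FPKM in both groups removes. With a pseudocount of 0.1 the log2 ratios were -0.82 for Clec2d, -1.40 for Cd69 and -2.06 for Clec12a. Over all rows, 110 were called higher, 73 at q under 0.01 and 61 with the FPKM minimum, and lower calls numbered 83 to 122. No other row of the window was called with 0.5 or 2 Mb on each side, nor any other listed lectin gene with every row of a symbol. The median of the 25 neighbouring rows was -0.56 with a pseudocount of 0.1 and -0.25 over the 17 with an identifier, and that of the window was -0.55 with 0.5 Mb and -0.26 with 2 Mb on each side, alternatives chosen after seeing the data. No paired analysis was possible because replicates were combined before deposit, which also prevented leaving out a replicate or judging the limits of depth.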

Other observations

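Rows whose levels in both groups came closest to each member, by distance over log2(FPKM + 1) in the 2 group values, were as follows. Nearest to Clec2d was Fndc3a on chromosome 14, at 28.8 FPKM in hCALR-del52 cells and 49.3 FPKM in hCALR cells, followed by Rgs11 and Tgif1 on chromosome 17. None of these 3 was called, with q between 0.398 and 0.438, although Clec2d was called at nearly the same levels. Nearest to Cd69 were Casp1, the inflammasome protease gene, at 2.54 FPKM in hCALR-del52 cells and 9.61 FPKM in hCALR cells (q = 0.00161), Tcrg-V7, a T cell receptor gamma segment, and Cdkl4, which was also called lower (q = 0.014). Nearest to Clec12a were Pga5, a pepsinogen gene, at 0.487 FPKM in hCALR-del52 cells and 2.52 FPKM in hCALR cells (q = 0.00161), Trim2 and Emx2, and the last 2 were not called. None of these 9 genes lies on chromosome 6. With only 2 group values, likeness of this kind matches levels alone.

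Gpr183, an oxysterol receptor that guides B cell migration and was counted in the S1P list, was at 0.246 FPKM in hCALR-del52 cells and 3.47 FPKM in hCALR cells, with p = 0.0596 and q = 0.445 in the authors' deposited table. Tec, a kinase of the ITAM signalling list, was at 16.2 FPKM in hCALR-del52 cells and 27.5 FPKM in hCALR cells, with q = 0.0704.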
